A study of Mus musculus with 16 samples.

Results

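The liver of Mettl3 cKO mice was followed over the first postnatal week, from postnatal day 1 (P1) to week 1 (W1). The members are the 4 Mettl3 cKO libraries of these ages among the 16 liver RNA-seq libraries of the series, 2 at each age, each from another mouse. Of the 53379 genes in the deposited table, 13124 reached 1 FPKM (fragments mapped, scaled by transcript length in kilobases and by library depth) in at least 2 of the 4 libraries and were tested. Mettl3 cKO mice carried Mettl3 alleles with loxP sites around exons 2 to 4 and 1 copy of a Cre transgene driven by the albumin enhancer and promoter, and their labels give a hepatic deletion of Mettl3. Control mice, labelled WT, shared litters and cages with them, and both genotypes were on the C57BL/6J background. The 4 Control livers of the same ages, 2 at P1 and 2 at W1, served only for comparison. Albumin-driven Cre acts in hepatocytes and their precursors, and every library also holds RNA of other cell types of the organ, in which the state of Mettl3 was not measured.

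Mettl3 holds the active site of the methyltransferase that places N6-methyladenosine (m6A) on mRNA, a mark that reader proteins bind and that affects splicing, translation and decay. Around birth the mouse liver stops being a blood-forming organ, and its hepatocytes divide less and take up adult work: secretion of plasma proteins, gluconeogenesis, the urea cycle, bile acid synthesis and detoxification. Liver transcription factors such as Hnf4a, and growth hormone from the pituitary, are known to drive parts of this programme.

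The 4 libraries had estimated depths of 13.9 M to 15.3 M reads. Transcripts of the mitochondrial genome took 24.6% to 34.7% of the summed FPKM, with the lowest and the highest share both at W1. The 2 libraries of an age had a Spearman correlation over genes of 0.965 at P1 and 0.966 at W1. Alb, the hepatocyte's main secreted protein, was at 18582 and 24871 FPKM at P1 and 39035 and 36633 FPKM at W1. Mettl3 itself was at 11.3 and 9.06 FPKM at P1 and 8.86 and 7.24 FPKM at W1, and at 7.79 and 8.12 FPKM at P1 and 5.46 and 5.53 FPKM at W1 in Control livers. A value for the whole gene includes exons outside the deleted stretch and the other cell types, so it does not check the label. The 4 Mettl3 cKO livers showed the female pattern of high Xist with Eif2s3y and Ddx3y at or near 0, whereas 3 of the 4 Control livers (P1 replicate 1 and both W1 replicates) showed the male pattern. In the comparison of genotypes at W1, sex and genotype therefore cannot be told apart. The Control livers also shift in sex, with the male pattern in 1 of 2 at P1 and in both at W1. The Control change from P1 to W1, and the test of a difference between genotypes that uses it, therefore include this shift.

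Between P1 and W1, 2912 of the 13124 genes changed in Mettl3 cKO liver at a Benjamini-Hochberg adjusted p under 0.05 in limma, with 1199 higher at W1 (9.14% of genes tested) and 1713 lower (13.1%). Of these, 324 rose and 632 fell by more than 1 on the log2 scale, where a change is a difference of log2(FPKM + 1) after rescaling of the libraries and its ± value is a standard error. Among the gene lists examined, erythroid and cell cycle genes had the largest shares of members lower at W1, and p53 targets, phase II conjugation, amino acid and Hnf4a target genes the largest shares higher. The split of calls depended on the scale. On the deposited values, without rescaling, the median over all genes moved from -0.01 to -0.12, and 723 genes were higher and 2326 lower. Scaling to the total of nuclear genes (median -0.14) gave 728 and 2211. The total also rested on single livers, with 1518 calls without P1 replicate 1, 1514 without W1 replicate 1 and 1778 without W1 replicate 2. In Control liver 1597 genes were higher (12.2%) and 2098 lower (16%) at W1, with 770 and 3627 on the deposited scale and 817 and 2964 on the nuclear total scale. Both genotypes called 1753 genes in the same direction, which is 60.2% of the Mettl3 cKO calls and 47.4% of the Control calls.

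**Figure D1:**
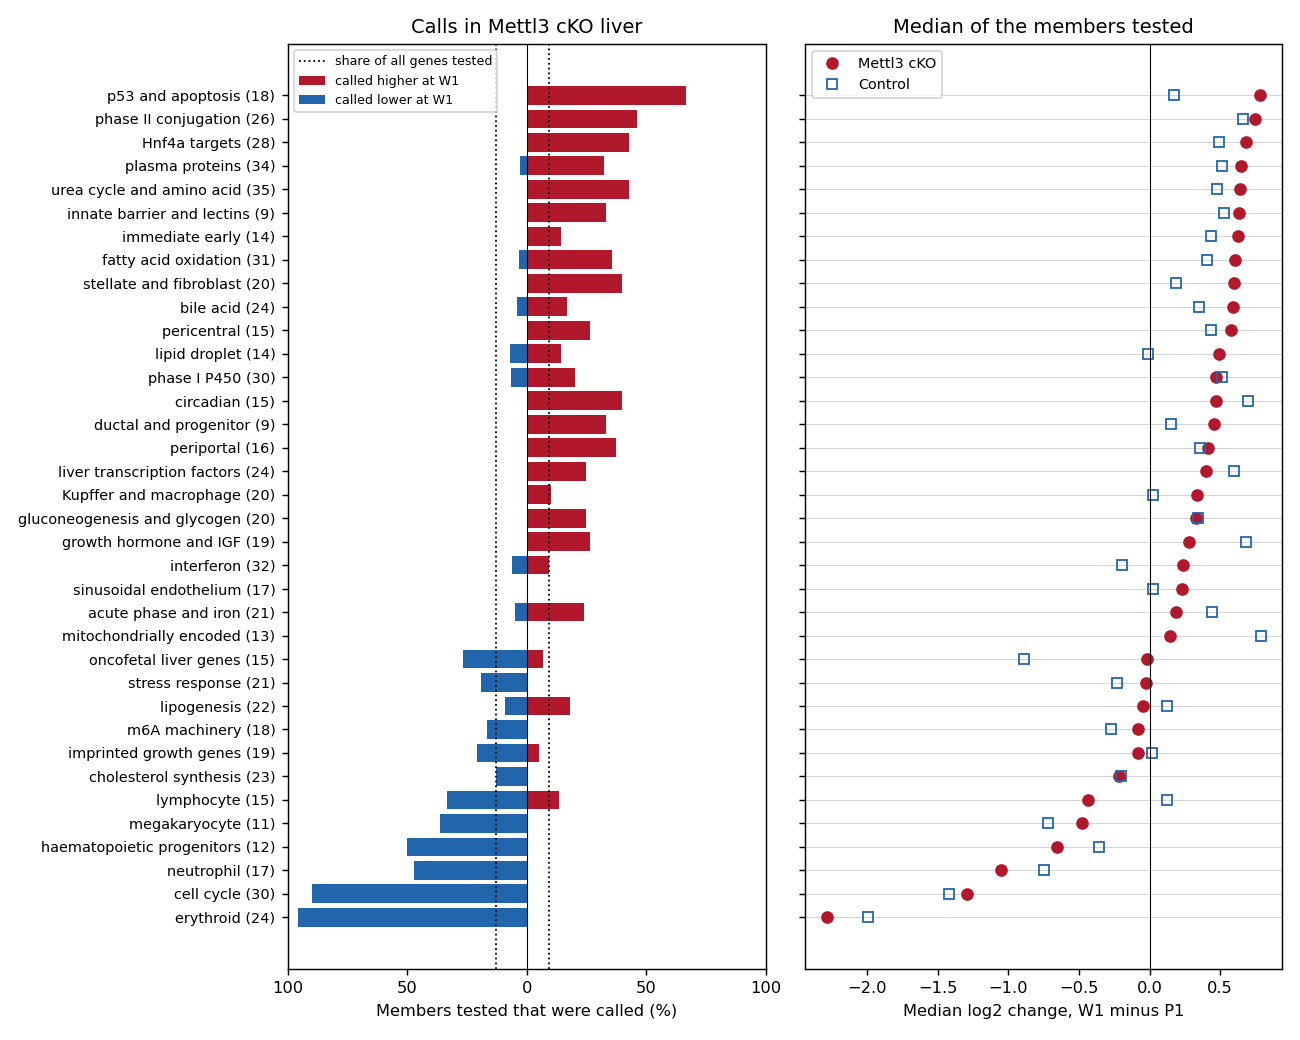
Gene lists in Mettl3 cKO liver from P1 to W1. Left, percentage of the members tested (number in brackets) that were called higher (red) or lower (blue) at W1, with the shares over all genes tested, 9.14% and 13.1%, as dotted lines. Right, median log2 change of the members in Mettl3 cKO (filled circles) and Control (open squares), which runs from -2.29 for erythroid genes to 0.78 for p53 target and apoptosis genes in Mettl3 cKO.

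Genes of the red cell lineage fell together in the first week of Mettl3 cKO liver. Of 25 erythroid genes listed, 24 were tested and 23 were lower at W1, with a median log2 change of -2.29 against -0.01 over all genes. The remaining gene, Hba-a2, had a log2 change of -1.38 (adjusted p = 0.109). The count was 23 on both other scales and without any 1 of the 4 livers. Short stretches upstream of 3 genes of the list and of Kel, a red cell gene outside the list that is among the 12 lowest changes, are shown because they hold the core of the motif bound by GATA factors, the family of the erythroid regulator Gata1. They are the last 110 bases before the start site in RefSeq's GRCm38.p6 promoter table, 5′ to 3′ on the gene's strand, with AGATAA or its reverse complement, and TGATAA or its own, in capitals.
Klf1 (chr8:84901872-84901981, plus strand): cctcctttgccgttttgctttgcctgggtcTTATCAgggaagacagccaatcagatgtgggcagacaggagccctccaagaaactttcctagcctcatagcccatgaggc
Kel (chr6:41704326-41704435, minus strand): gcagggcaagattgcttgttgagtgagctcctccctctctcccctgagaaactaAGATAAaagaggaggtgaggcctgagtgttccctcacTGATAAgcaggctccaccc
Ermap (chr4:119189996-119190105, minus strand): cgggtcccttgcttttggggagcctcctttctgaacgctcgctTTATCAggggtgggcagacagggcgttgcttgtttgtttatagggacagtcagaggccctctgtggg
Alas2 (chrX:150547307-150547416, plus strand): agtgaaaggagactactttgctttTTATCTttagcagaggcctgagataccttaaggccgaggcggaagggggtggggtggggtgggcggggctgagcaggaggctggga
Within 250 bases upstream of the start site, 13 of the 18 erythroid list genes with an entry, Kel not included, held 1 or both of these motifs on either strand, against 9.79% of the 9461 tested genes with an entry. The CCACACCC box bound by Klf1 was in 1 of the 18, against 3.45%. A match describes the letters only.

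The 4 genes shown were high in both P1 livers and low in both W1 livers, with no overlap. For Kel and Ermap, which are among the 12 lowest changes, this was a condition of that choice. Klf1, an erythroid transcription factor, was at 48.01 and 67.3 FPKM at P1 and 7.22 and 11.1 FPKM at W1 (log2 change -2.39 ± 0.25, adjusted p = 5.44e-05). Kel, the Kell blood group protein, was at 154 and 167 FPKM at P1 and 21.3 and 17.9 FPKM at W1 (log2 change -2.83 ± 0.20, adjusted p = 4.05e-06). Ermap, an erythroblast membrane protein, was at 69.7 and 91.5 FPKM at P1 and 11.6 and 10.6 FPKM at W1 (log2 change -2.59 ± 0.23, adjusted p = 2.10e-05). Alas2 carries out the first step of haem synthesis in red cell precursors. It was at 237 and 276 FPKM at P1 and 75.2 and 50.9 FPKM at W1 (log2 change -1.89 ± 0.29, adjusted p = 0.000812). Genes from regulators to the membrane skeleton gave log2 changes of like size. The change was -2.34 for Gata1, -2.23 for the anion exchanger gene Slc4a1, -2.39 for the spectrin gene Sptb and -2.29 for the erythropoietin receptor gene Epor. Haemoglobin genes made up 3.10% and 3.25% of the summed FPKM in the P1 libraries and 0.928% and 0.738% in the W1 libraries. In Control liver 23 of the 24 genes also fell, with a median of -1.99. None of the 24 passed the adjusted test of a difference between genotypes, which called 5 of all 13124 genes. At an unadjusted p under 0.05 the change was more negative in Mettl3 cKO for 3 of the 24 and more positive for 0. Of all genes tested, 6.92% and 6.6% differed in these directions. The median difference was -0.26, and 3 of the 24 genes had a more positive change in Mettl3 cKO at any p. On the deposited scale 1 gene was more negative at the unadjusted threshold. In bulk RNA fewer cells of a type and less RNA per cell cannot be told apart, here and for the other cell types.

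**Figure D2:**
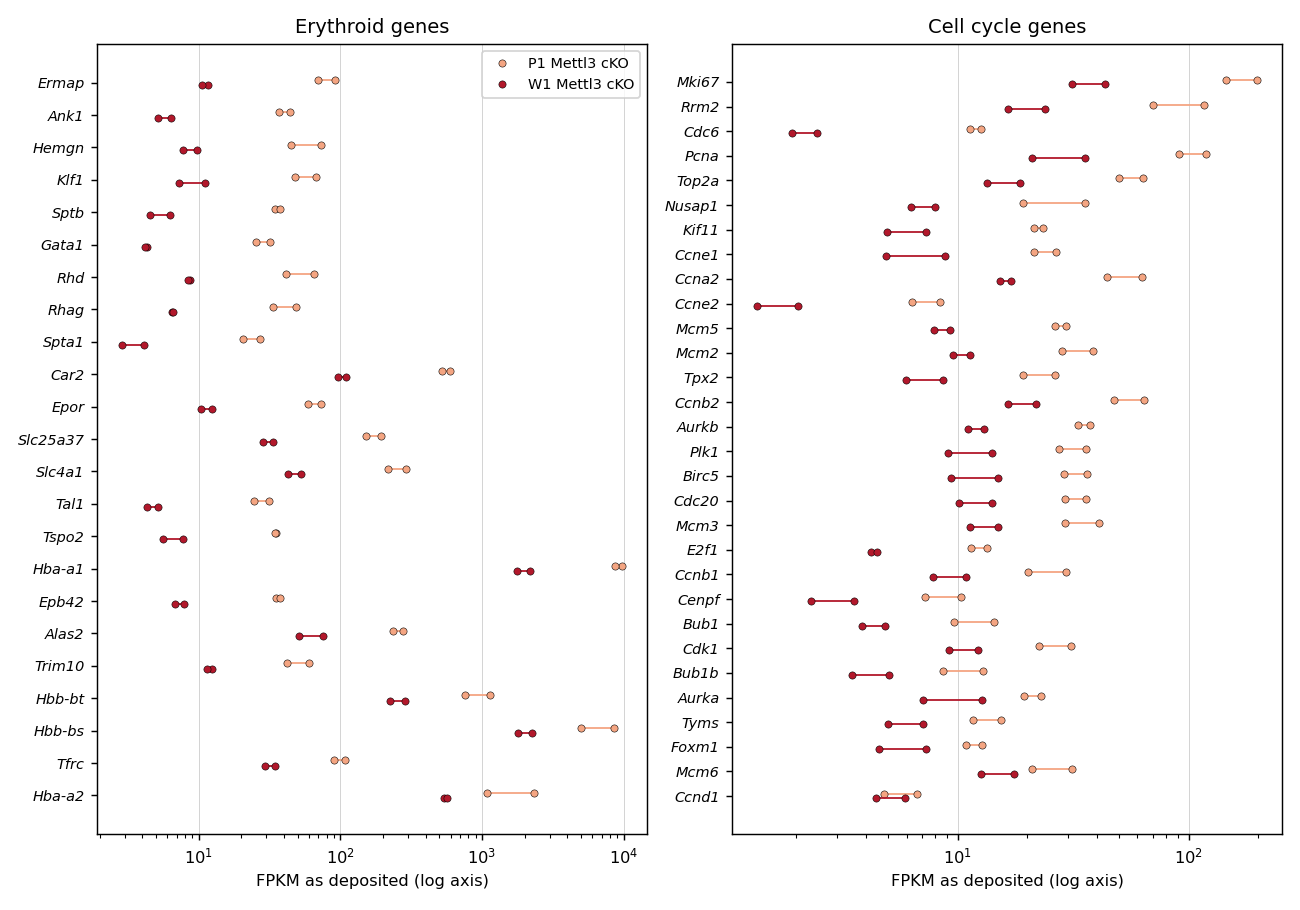
FPKM of 23 of the 24 erythroid genes (left) and the 30 cell cycle genes (right) tested, in the 2 P1 (orange) and 2 W1 (red) Mettl3 cKO livers, on log axes, with a line joining the 2 livers of an age. The W1 points lie to the left of the P1 points for every gene but Ccnd1, for example Klf1 at 48.01 and 67.3 against 7.22 and 11.1 FPKM and Mki67 at 144 and 198 against 31.4 and 43.4 FPKM.

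In other blood lineages smaller shares of the genes passed the test than among erythroid genes. Over all genes tested 13.1% were lower and 9.14% higher. Of 12 haematopoietic progenitor genes 6 were lower and none higher. Lmo2, a partner of Gata1 and Tal1, was at 87.8 and 94.3 FPKM at P1 and 18.7 and 18.6 FPKM at W1 (log2 change -2.08 ± 0.21, adjusted p = 3.96e-05). Ikzf1, the lymphoid regulator Ikaros, was at 13.2 and 13.7 FPKM at P1 and 3.84 and 3.43 FPKM at W1 (log2 change -1.50 ± 0.17, adjusted p = 9.80e-05). For both, the ages did not overlap, but the count of progenitor genes was 2 without P1 replicate 1 or without W1 replicate 2 and 3 without W1 replicate 1.

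Of 17 neutrophil genes 8 were lower, against 13.1% of all genes tested. Among the 8 were 4 genes of the primary granules, which are filled early in maturation. The peroxidase gene Mpo was at 53.8 and 46.1 FPKM at P1 and 15.7 and 10.2 FPKM at W1 (log2 change -1.75). The protease genes of the same granules followed: Elane changed by -1.71, Prtn3 by -1.89 and Ctsg by -1.91. S100a8, which encodes a calcium-binding protein of the cytosol, was at 798 and 824 FPKM at P1 and 372 and 230.1 FPKM at W1 (log2 change -1.33 ± 0.39, adjusted p = 0.0288). Ltf, a gene of granules filled later, was at 51.0 and 58.0 FPKM at P1 and 42.4 and 21.6 FPKM at W1 and was not called. The neutrophil count was 6 to 8 when 1 of the 4 livers was left out and 4 with 0.1 FPKM added in place of 1.

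Of 11 megakaryocyte genes 4 were lower, including the platelet chemokine gene Pf4, which was at 208 and 146 FPKM at P1 and 91.8 and 64.9 FPKM at W1 (log2 change -1.02 ± 0.26, adjusted p = 0.0149). None were called without P1 replicate 1 or without W1 replicate 2. Over all genes tested 13.1% were lower and 9.14% higher. Of 15 lymphocyte genes 5 genes of B cells were lower. Among these Cd79b, a signalling subunit of the B cell receptor, was at 20.8 and 15.9 FPKM at P1 and 9.71 and 7.28 FPKM at W1 (log2 change -0.89 ± 0.24, adjusted p = 0.0217). P1 replicate 1 was the higher P1 liver for each of the 5, and none were called lower without it or without W1 replicate 2. The T cell genes Trbc2, at 4.13 and 3.47 FPKM at P1 and 10.6 and 6.40 FPKM at W1 (log2 change 1.04 ± 0.25, adjusted p = 0.0123), and Cd3g (0.51) were higher. No lymphocyte gene was called higher without either P1 liver or without W1 replicate 1.

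Genes of the cell cycle fell with nearly the same completeness as erythroid genes. All 30 listed genes were tested, 27 were lower, and the median log2 change was -1.29. Ccnd1 (-0.01), Foxm1 (-0.78) and Mcm6 (-0.60) were not called. Mki67, the proliferation marker, was at 144 and 198 FPKM at P1 and 31.4 and 43.4 FPKM at W1 (log2 change -2.02 ± 0.36, adjusted p = 0.00224). Cdc6, which loads the replicative helicase, was at 11.2 and 12.6 FPKM at P1 and 1.91 and 2.45 FPKM at W1 (log2 change -1.87 ± 0.17, adjusted p = 2.08e-05). E2f1, an activator of S phase genes, was at 11.4 and 13.4 FPKM at P1 and 4.20 and 4.46 FPKM at W1 (log2 change -1.19 ± 0.13, adjusted p = 7.75e-05). In the mitotic group, the cyclin gene Ccnb2 was at 47.5 and 64.1 FPKM at P1 and 16.5 and 21.8 FPKM at W1 (log2 change -1.35 ± 0.21, adjusted p = 0.00102), with no overlap between the ages. P1 replicate 2 was the higher P1 liver for 29 of the 30 genes, and W1 replicate 2 the higher W1 liver for all 30. The count of lower genes was 21 without P1 replicate 2 and 17 without W1 replicate 1. Red cell precursors divide, and erythroid genes fell in the same libraries. The share of the fall that came from each cell type was not tested. In Control liver 27 of the 30 genes also fell (median -1.42), and 0 of the 30 differed between genotypes at an unadjusted p under 0.05. Of all genes tested, 6.6% were more positive and 6.92% more negative in Mettl3 cKO at that threshold.

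The upstream sequences of 2 of these genes are shown because the CCAAT box, bound by NF-Y, recurs in them.
Ccnb2 (chr9:70421555-70421664, minus strand): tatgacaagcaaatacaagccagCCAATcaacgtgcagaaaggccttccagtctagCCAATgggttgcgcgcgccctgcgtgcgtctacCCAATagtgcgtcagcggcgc
Cdc20 (chr4:118437344-118437453, minus strand): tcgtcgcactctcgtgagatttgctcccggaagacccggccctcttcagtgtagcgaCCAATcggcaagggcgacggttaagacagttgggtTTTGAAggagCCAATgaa
Capitals mark CCAAT, and in Cdc20 also TTTGAA, the core of the cell cycle homology region. The 3 CCAAT boxes of Ccnb2 begin at -87, -54 and -21 from the start site. Within 250 bases upstream, 18 of the 24 cell cycle genes with an entry held CCAAT on either strand against 36.7% of all tested genes, and 7 held TTTGAA against 10.8%.

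Part of the secreted proteins of the hepatocyte rose in the same week. Of 36 plasma protein genes listed, 34 were tested, 11 were higher and 1 was lower, with a median log2 change of 0.64. Hpx, the haem-binding protein of plasma, was at 961 and 1021 FPKM at P1 and 3413 and 2409 FPKM at W1 (log2 change 1.67 ± 0.24, adjusted p = 0.000545). The prothrombin gene F2 was at 106 and 173 FPKM at P1 and 336 and 313 FPKM at W1 (log2 change 1.39 ± 0.34, adjusted p = 0.0123). The antithrombin gene Serpinc1 was at 190.5 and 256 FPKM at P1 and 438 and 403 FPKM at W1 (log2 change 1.06 ± 0.23, adjusted p = 0.00716). For these 3 genes both W1 livers lay above both P1 livers. Alb changed by 0.96 ± 0.29 (adjusted p = 0.0344), the thyroxine and retinol carrier gene Ttr by 0.87, and the fetuin gene Ahsg by 0.94. The fibrinogen genes were not called, and Fgb was at 525 and 513 FPKM at P1 and 676 and 569 FPKM at W1. The gene called lower was Serpina1e, 1 of 5 neighbouring antitrypsin copies, at 486 and 348 FPKM at P1 and 17.8 and 45.0 FPKM at W1 (log2 change -3.67 ± 1.14, adjusted p = 0.037). The counting could have shared reads among these near-identical copies, so the value of each is uncertain. Of 21 acute phase and iron genes 5 were higher and 1 lower, and 1 to 3 were higher when 1 of the 4 livers was left out. The haptoglobin gene Hp was higher at 2680.2 and 3645 FPKM at P1 and 7129 and 4514 FPKM at W1 (log2 change 1.000 ± 0.28, adjusted p = 0.0235), and the hepcidin gene Hamp was the lower one (-5.34). The number of plasma protein genes called higher was 3 without P1 replicate 1, 4 without W1 replicate 1, 6 without W1 replicate 2 and 7 on the deposited scale.

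The promoters of 2 genes are shown for the Hnf1 half-site GTTAAT, which or whose reverse complement is in capitals.
Alb (chr5:90460760-90460869, plus strand): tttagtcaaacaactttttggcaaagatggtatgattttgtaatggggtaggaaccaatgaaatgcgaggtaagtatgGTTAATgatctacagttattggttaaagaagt
Fgb (chr3:83049864-83049973, minus strand): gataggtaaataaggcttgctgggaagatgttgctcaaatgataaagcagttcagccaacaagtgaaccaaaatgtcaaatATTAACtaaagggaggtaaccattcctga
Of 27 plasma protein genes with an entry, 11 held GTTAAT within 250 bases upstream on either strand against 4.12% of all tested genes, and 5 of the 11 were the Serpina1 copies. CAAAGTCC, a core of Hnf4a sites, was in 0 of the 27 and in 1.501% of all. Of the 2 genes shown, Alb was called higher and Fgb, at 0.40 ± 0.30, was not.

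Among 24 liver transcription factor genes tested, 6 were higher and none lower. Nr5a2, an orphan receptor that controls bile acid and cholesterol genes, was at 3.18 and 3.57 FPKM at P1 and 6.63 and 6.61 FPKM at W1 (log2 change 0.90 ± 0.13, adjusted p = 0.00048). Cebpa, a factor of hepatocyte differentiation, was at 33.5 and 57.0 FPKM at P1 and 68.8 and 83.8 FPKM at W1 (log2 change 0.92 ± 0.28, adjusted p = 0.0355). Ppara, the fatty acid sensor, was at 6.29 and 5.75 FPKM at P1 and 12.1 and 8.47 FPKM at W1 (log2 change 0.78 ± 0.26, adjusted p = 0.0482). In each of these the W1 livers lay above the P1 livers. Hnf4a was at 50.3 and 56.4 FPKM at P1 and 69.7 and 56.9 FPKM at W1 and did not pass (log2 change 0.37 ± 0.18, adjusted p = 0.161). The count was 1 on both other scales and 2 without P1 replicate 1 or without either W1 liver. On both the deposited and the nuclear total scale 1 gene was also called lower in Mettl3 cKO. In Control liver 11 of the 24 were higher in the fit on rescaled values. The change was less positive in Mettl3 cKO at an unadjusted p under 0.05 for 6 of the 24 genes and more positive for 0, where 6.92% and 6.6% of all genes tested differed in these directions. The 6 included 2 receptors: Nr1h4, the bile acid receptor, was at 60.7 and 56.4 FPKM at P1 and 62.9 and 54.8 FPKM at W1 in Mettl3 cKO and at 50.7 and 45.3 FPKM at P1 and 89.5 and 77.6 FPKM at W1 in Control. Nr1i3, the drug-sensing receptor, was at 43.2 and 27.5 FPKM at P1 and 36.5 and 17.0 FPKM at W1 in Mettl3 cKO and at 57.4 and 61.1 FPKM at P1 and 132 and 193 FPKM at W1 in Control. The differences were -0.93 and -2.02 on the log2 scale, and none of the 6 was called after adjustment (adjusted p = 0.26 and 0.276 for these 2). Over the settings tried, 2 to 6 of the genes differed at the unadjusted threshold, 3 of them on the deposited scale and 2 without P1 Control replicate 2.

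Of 28 genes listed as Hnf4a targets 12 were higher and none lower, and the count was 6 without P1 replicate 1 or W1 replicate 2 and 8 without W1 replicate 1 or on the nuclear total scale. Over all genes tested 9.14% were higher. In Control liver 11 of the 28 targets were also higher, with a median log2 change of 0.49 against 0.68 in Mettl3 cKO. In Mettl3 cKO the apolipoprotein gene Apoc3 changed by 1.11 ± 0.35 (adjusted p = 0.0414). Apoa2 (0.73, adjusted p = 0.103) and the lipoprotein assembly gene Mttp (0.43, adjusted p = 0.108) were not called.

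Among 26 phase II genes tested, of 34 listed, whose enzymes conjugate compounds for excretion, 12 were higher, none were lower and 14 were not called (median 0.74). Sult1c2, a cytosolic sulfotransferase, was at 5.06 and 10.1 FPKM at P1 and 36.2 and 31.4 FPKM at W1 (log2 change 2.19 ± 0.27, adjusted p = 0.000197). The glucuronosyltransferase gene Ugt3a2 was at 1.59 and 1.46 FPKM at P1 and 9.24 and 5.92 FPKM at W1 (log2 change 1.79 ± 0.25, adjusted p = 0.000455). The glutathione transferases called were Gsta4 (1.29), Gstt1 (1.04), Gstp1 (0.96), Gsta3 (0.81) and Gstz1 (0.76). Without P1 replicate 1 the count was 4, and without either W1 liver it was 7. Of 30 phase I genes 6 were higher, 3 without P1 replicate 1, and 2 were lower. Over all genes tested 9.14% were higher and 13.1% lower, and the share of phase I genes lower was below the latter. Ces1c, a secreted carboxylesterase, was at 114 and 184 FPKM at P1 and 1079 and 865 FPKM at W1 (log2 change 2.87 ± 0.42, adjusted p = 0.000631). Cyp2e1, the ethanol-inducible P450, was at 189 and 277 FPKM at P1 and 739 and 534 FPKM at W1 (log2 change 1.59 ± 0.41, adjusted p = 0.0161). Cyp3a11, a main drug-metabolising P450, was at 121 and 164 FPKM at P1 and 209 and 338 FPKM at W1 (log2 change 1.05 ± 0.34, adjusted p = 0.0444). Other Cyp3a genes moved the other way, and Cyp3a16 was at 48.3 and 56.1 FPKM at P1 and 25.2 and 28.3 FPKM at W1 (log2 change -0.80 ± 0.19, adjusted p = 0.011). Cyp3a, Ugt2b and Ces1 genes are close copies, so reads may have been split among them.

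Of 35 genes of amino acid catabolism and the urea cycle tested, the most of any list, 15 were higher and none lower (median 0.64). Over all genes tested 9.14% were higher and 13.1% lower. In Control liver 14 of the 35 were also higher, with a median of 0.48. Tdo2, which opens the tryptophan ring, was at 1.14 and 0.721 FPKM at P1 and 10.8 and 10.6 FPKM at W1 (log2 change 2.63 ± 0.22, adjusted p = 1.33e-05). Gls2, liver glutaminase, was at 14.7 and 24.4 FPKM at P1 and 52.5 and 45.3 FPKM at W1 (log2 change 1.45 ± 0.31, adjusted p = 0.00638). In each the ages did not overlap, which for Tdo2 was a condition of the 12 largest rises, where it is also named. In the urea cycle, Ass1, which joins citrulline to aspartate, was at 57.7 and 87.5 FPKM at P1 and 151 and 170.2 FPKM at W1 (log2 change 1.30 ± 0.28, adjusted p = 0.00607). Otc, the step before it, changed by 0.96 ± 0.31 (adjusted p = 0.0412). The entry enzyme gene Cps1, at 48.5 and 77.2 FPKM at P1 and 69.4 and 70.7 FPKM at W1, and the last step, Arg1, at 192 and 283 FPKM at P1 and 209.8 and 199 FPKM at W1, were not called. The count of 15 was 3 without P1 replicate 1, 6 without W1 replicate 2, 8 without W1 replicate 1, 9 on the deposited scale and 7 on the nuclear total scale.

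**Figure D3:**
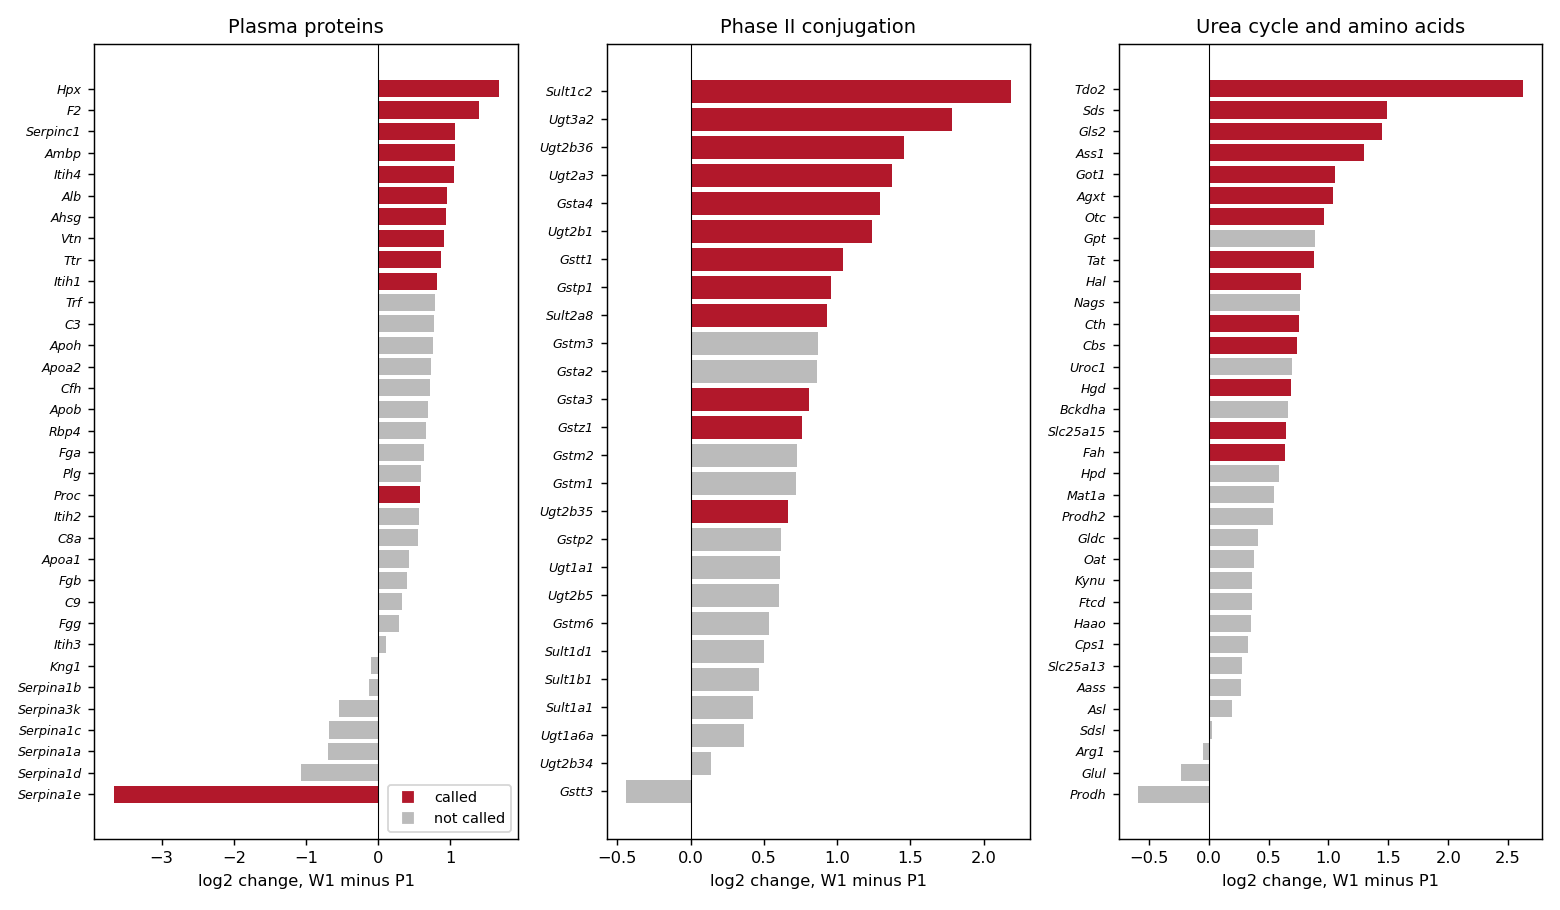
log2 change from P1 to W1 in Mettl3 cKO liver of the tested plasma protein and phase II conjugation genes and of 34 of the 35 urea cycle or amino acid genes, sorted within each list. Red bars passed the test (12, 12 and 14 genes) and grey bars did not. Serpina1e at -3.67 is the only red bar below 0 and Tdo2 at 2.63 the longest bar above it.

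In carbohydrate metabolism 5 of 20 genes were higher, 2 without W1 replicate 2 and 3 without P1 replicate 1, without W1 replicate 1 or on the deposited scale. Pdk4, which blocks pyruvate oxidation, was at 6.38 and 4.32 FPKM at P1 and 28.6 and 11.2 FPKM at W1 (log2 change 1.71 ± 0.36, adjusted p = 0.0056). Khk, which phosphorylates fructose, was at 20.1 and 20.6 FPKM at P1 and 60.1 and 47.3 FPKM at W1 (log2 change 1.48 ± 0.19, adjusted p = 0.000321). Pck1, the committing enzyme of gluconeogenesis, was at 279 and 263 FPKM at P1 and 455 and 593 FPKM at W1 (log2 change 1.08 ± 0.24, adjusted p = 0.00848). G6pc, which releases free glucose, was at 183 and 163 FPKM at P1 and 251 and 116 FPKM at W1, with overlapping ages, and was not called.

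Of 31 fatty acid oxidation genes 11 were higher and 1 lower. Acaa1b, a peroxisomal thiolase, was at 152 and 121 FPKM at P1 and 387 and 269 FPKM at W1 (log2 change 1.38 ± 0.30, adjusted p = 0.0065). Ehhadh, another peroxisomal enzyme, was at 34.6 and 37.4 FPKM at P1 and 128 and 65.0 FPKM at W1 (log2 change 1.45 ± 0.43, adjusted p = 0.0312), with W1 replicate 1 far above W1 replicate 2. The gene that fell was Ucp2, a mitochondrial carrier also made by blood cells, at 126 and 122 FPKM at P1 and 52.6 and 47.5 FPKM at W1 (log2 change -1.15 ± 0.15, adjusted p = 0.000337). Without W1 replicate 1 the number higher was 1, without P1 replicate 1 it was 4, and on the deposited scale 5.

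Of 22 lipogenesis genes 4 were higher and 2 lower, with 1 higher without W1 replicate 1 and 2 without P1 replicate 1. The desaturase gene Fads1 was at 41.7 and 43.5 FPKM at P1 and 104 and 87.9 FPKM at W1 (log2 change 1.29 ± 0.21, adjusted p = 0.00122). Elovl5, which elongates polyunsaturated chains, was at 48.4 and 40.2 FPKM at P1 and 98.6 and 88.9 FPKM at W1 (log2 change 1.21 ± 0.29, adjusted p = 0.0112), while Elovl6, which elongates saturated chains, was lower at 6.24 and 5.65 FPKM at P1 and 2.18 and 2.30 FPKM at W1 (log2 change -0.96 ± 0.20, adjusted p = 0.00619). In cholesterol synthesis 3 of 23 genes were lower, among them Fdps, which makes farnesyl diphosphate (-0.56), and none were called without P1 replicate 1, without either W1 liver or with 0.1 FPKM added in place of 1. Over all genes tested 9.14% were higher and 13.1% lower, and the share lower in cholesterol synthesis was close to the latter. Bile acid genes gave 4 higher and 1 lower of 24. Amacr, which acts in side chain oxidation, was at 28.6 and 31.9 FPKM at P1 and 59.7 and 60.6 FPKM at W1 (log2 change 1.10 ± 0.14, adjusted p = 0.000239). Akr1d1, which reduces the steroid ring, was at 29.1 and 37.1 FPKM at P1 and 63.1 and 70.6 FPKM at W1 (log2 change 1.13 ± 0.20, adjusted p = 0.00207). Cyp7a1, the rate-limiting enzyme of bile acid synthesis, was at 5.03 and 12.9 FPKM at P1 and 2.54 and 13.6 FPKM at W1, and the livers of an age differed more than the ages.

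Of 19 genes of the growth hormone axis 5 were higher and none lower, and 4 or 5 were higher when any 1 of the 4 livers was left out. Igf1, the growth factor that hepatocytes release into blood, was at 9.14 and 11.4 FPKM at P1 and 40.6 and 43.7 FPKM at W1 (log2 change 2.06 ± 0.17, adjusted p = 1.50e-05). Ghr, the growth hormone receptor, was at 15.7 and 14.6 FPKM at P1 and 37.8 and 45.6 FPKM at W1 (log2 change 1.52 ± 0.17, adjusted p = 8.72e-05). Igfals, which holds Igf1 in its ternary complex in plasma, was at 22.5 and 29.9 FPKM at P1 and 62.7 and 62.7 FPKM at W1 (log2 change 1.37 ± 0.24, adjusted p = 0.00218). For each of these the W1 livers lay far above both P1 livers. The feedback inhibitor gene Socs2 was at 22.9 and 30.8 FPKM at P1 and 30.1 and 27.0 FPKM at W1 and was not called. Of the 19 growth hormone axis genes, 9 were higher in Control liver, with a median of 0.68 against 0.28 in Mettl3 cKO. At an unadjusted p under 0.05 the change was less positive in Mettl3 cKO for 3 of them and more positive for 1. Of all genes tested, 6.92% and 6.6% differed in these directions. In Mettl3 cKO, fetal growth genes under imprinting gave 4 lower and 1 higher of 19. For this change from P1 to W1, 13.1% of all genes tested were lower and 9.14% higher. The noncoding gene Meg3 was at 58.9 and 30.7 FPKM at P1 and 19.2 and 13.6 FPKM at W1 (log2 change -1.20 ± 0.35, adjusted p = 0.0285). Peg10, from another imprinted cluster, was at 5.43 and 5.26 FPKM at P1 and 2.33 and 2.16 FPKM at W1 (log2 change -0.83 ± 0.20, adjusted p = 0.0112). Igf2 was read at 1.87 and 2.05 FPKM at P1 and 1.71 and 2.30 FPKM at W1, but the overlapping gene model Gm49394 shares its position and the value is uncertain. Without P1 replicate 1 none of the imprinted genes were called.

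Fetal liver genes moved in several ways. Of 15 oncofetal genes tested 4 were lower and 1 higher, where 13.1% of all genes tested were lower and 9.14% higher. Cd24a, a surface protein of progenitors and young blood cells, was at 264 and 431 FPKM at P1 and 59.7 and 60.3 FPKM at W1 (log2 change -2.33 ± 0.34, adjusted p = 0.000621). Lin28b, the let-7 antagonist, was at 1.54 and 1.46 FPKM at P1 and 0.227 and 0.0661 FPKM at W1 (log2 change -0.998 ± 0.15, adjusted p = 0.000625). Afp, the fetal counterpart of albumin, was at 4549 and 7252 FPKM at P1 and 5800.4 and 6091 FPKM at W1, with a log2 change of 0.19 ± 0.60 (adjusted p = 0.852). Afp was at 8537 and 9748 FPKM at P1 and 3735 and 2262 FPKM at W1 in Control, and its difference between genotypes was 1.55 ± 0.85 (adjusted p = 0.439). Lpl, a lipase gene that adult hepatocytes hardly express, was at 43.5 and 55.3 FPKM at P1 and 87.4 and 83.3 FPKM at W1 (log2 change 0.92 ± 0.20, adjusted p = 0.00631). In Control Lpl was at 125 and 144 FPKM at P1 and 109 and 88.1 FPKM at W1, and the difference of 1.07 had an adjusted p of 0.213. At an unadjusted p under 0.05 the change was less positive in Mettl3 cKO for 0 of the 15 genes, against 6.92% of all genes tested. It was more positive for 4, Lpl, Scd2, Bex2 and Aldoa, against 6.6%. This count was 7 on the deposited scale and 2 to 6 when 1 of the 8 livers was left out.

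Of 15 clock genes 6 were higher. Bhlhe40 was at 20.9 and 13.5 FPKM at P1 and 56.6 and 38.8 FPKM at W1 (log2 change 1.56 ± 0.22, adjusted p = 0.00057), and Dbp, an output factor of the clock, at 4.40 and 3.35 FPKM at P1 and 14.2 and 6.99 FPKM at W1 (log2 change 1.28 ± 0.32, adjusted p = 0.0134). Per3, a period gene, was at 2.36 and 2.03 FPKM at P1 and 4.37 and 4.12 FPKM at W1 in Mettl3 cKO and at 1.78 and 1.70 FPKM at P1 and 7.50 and 9.99 FPKM at W1 in Control, a difference of -1.21 (adjusted p = 0.0855). The sources used here do not give the hour at which livers were taken.

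Outside the blood lineages and hepatocytes, stromal genes gave the largest share of calls. Of 20 stellate cell and fibroblast genes 8 were higher and none lower. The collagen gene Col3a1 was at 31.3 and 33.2 FPKM at P1 and 64.4 and 69.0 FPKM at W1 (log2 change 1.16 ± 0.24, adjusted p = 0.00535). Pdgfrb, a receptor of stellate cells, was at 3.01 and 2.08 FPKM at P1 and 5.05 and 4.28 FPKM at W1 (log2 change 0.77 ± 0.19, adjusted p = 0.0122). Acta2, the marker of activated stellate cells, was at 11.9 and 15.2 FPKM at P1 and 7.98 and 16.3 FPKM at W1 and was not called. The count was 1 to 4 when 1 of the 4 livers was left out and 3 on the deposited scale. Of 20 Kupffer cell genes 2 were higher, Folr2 at 4.34 and 6.22 FPKM at P1 and 12.2 and 13.6 FPKM at W1 (log2 change 1.27 ± 0.27, adjusted p = 0.00632) and the iron exporter gene Slc40a1 (0.77), and 0 were without P1 replicate 1. The share of 2 in 20 Kupffer cell genes was close to the 9.14% of all genes tested that were higher. None of 17 sinusoidal endothelial genes passed the test in limma. Of 9 ductal genes 3 were higher, including Spp1, osteopontin, at 28.5 and 20.5 FPKM at P1 and 54.4 and 52.3 FPKM at W1 (log2 change 1.24 ± 0.28, adjusted p = 0.00773), and 1 was without either P1 liver. Krt7 and Sox9, which define ducts, were below the filter. Of the genes that mark zones of the adult lobule, 4 of 15 pericentral and 6 of 16 periportal genes were higher and none lower, and without P1 replicate 1 these counts were 2 and 1. Of 18 genes of exocrine pancreas and gut, 2 were tested and 5 were at 0 in all 4 libraries.

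A list of p53 target and apoptosis genes had the largest share of members higher at W1. Of 21 genes listed 18 were tested, and 12 were higher and none lower, with a median log2 change of 0.78. Among all genes tested 9.14% were higher and 13.1% lower. In each called gene both W1 livers lay above both P1 livers. That pattern rests on the same values as the call and is not separate support. Phlda3, a p53-induced repressor of Akt, was at 2.87 and 3.20 FPKM at P1 and 16.6 and 16.5 FPKM at W1 (log2 change 2.20 ± 0.20, adjusted p = 2.39e-05). Cdkn1a, the cell cycle inhibitor p21, was at 14.0 and 8.06 FPKM at P1 and 29.1 and 28.1 FPKM at W1 (log2 change 1.46 ± 0.32, adjusted p = 0.00702). Gdf15, a secreted stress factor, was at 9.92 and 4.80 FPKM at P1 and 38.8 and 16.7 FPKM at W1 (log2 change 1.85 ± 0.57, adjusted p = 0.0367), with a wide gap between the W1 livers. Among genes of cell death, Bax, which permeabilises mitochondria, was at 42.1 and 38.9 FPKM at P1 and 63.6 and 57.6 FPKM at W1 (log2 change 0.70 ± 0.21, adjusted p = 0.0316). The death receptor gene Tnfrsf10b was at 0.811 and 0.711 FPKM at P1 and 1.79 and 2.18 FPKM at W1 (log2 change 0.79 ± 0.15, adjusted p = 0.0029), and the receptor gene Fas at 18.1 and 20.1 FPKM at P1 and 37.1 and 27.2 FPKM at W1 (log2 change 0.84 ± 0.19, adjusted p = 0.00778). Ccng1, a cyclin induced by p53, was at 4.35 and 5.03 FPKM at P1 and 8.26 and 10.5 FPKM at W1 (log2 change 0.97 ± 0.16, adjusted p = 0.0012). Of the 18 genes tested 6 were not called, among them Mdm2 and Bbc3. Mdm2, which degrades p53, was at 18.0 and 13.5 FPKM at P1 and 15.8 and 15.4 FPKM at W1. Bbc3, a pro-apoptotic Bcl2 family gene, was at 3.65 and 5.34 FPKM at P1 and 7.66 and 4.80 FPKM at W1. The count of 12 was 10 on the deposited scale, 9 on the nuclear total scale and 5 to 7 when 1 of the 4 livers was left out.

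In Control livers of the same ages 2 of the 18 genes, Fas and Trp53inp1, were higher at W1 and 1, Aen, was lower, with a median of 0.18. Among all genes tested 12.2% were higher and 16% lower in Control, and the share of 2 in 18 was close to the former. The change was more positive in Mettl3 cKO at an unadjusted p under 0.05 for 7 of the 18 genes and less positive for 0, and for 4 to 9 genes over the settings tried. Of all genes tested, 6.6% had a more positive and 6.92% a less positive change in Mettl3 cKO at that threshold. Phlda3 was the only one of the 7 called after adjustment. The others differed by 1.53 for the nuclease gene Aen, 1.05 for Ccng1, 0.87 for Bax, 0.57 for Tnfrsf10b, 1.08 for Cdkn1a and 0.51 for Zmat3. Bax was at 27.5 and 27.0 FPKM at P1 and 19.3 and 20.1 FPKM at W1 in Control, so both P1 Mettl3 cKO livers were already above both P1 Control livers. Aen was at 4.05 and 3.41 FPKM at P1 and 6.70 and 7.39 FPKM at W1 in Mettl3 cKO (log2 change 0.87 ± 0.22, adjusted p = 0.0162). It was at 2.68 and 4.38 FPKM at P1 and 1.23 and 1.61 FPKM at W1 in Control, the opposite direction and also past the test, and the difference had an adjusted p of 0.164.

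**Figure D4:**
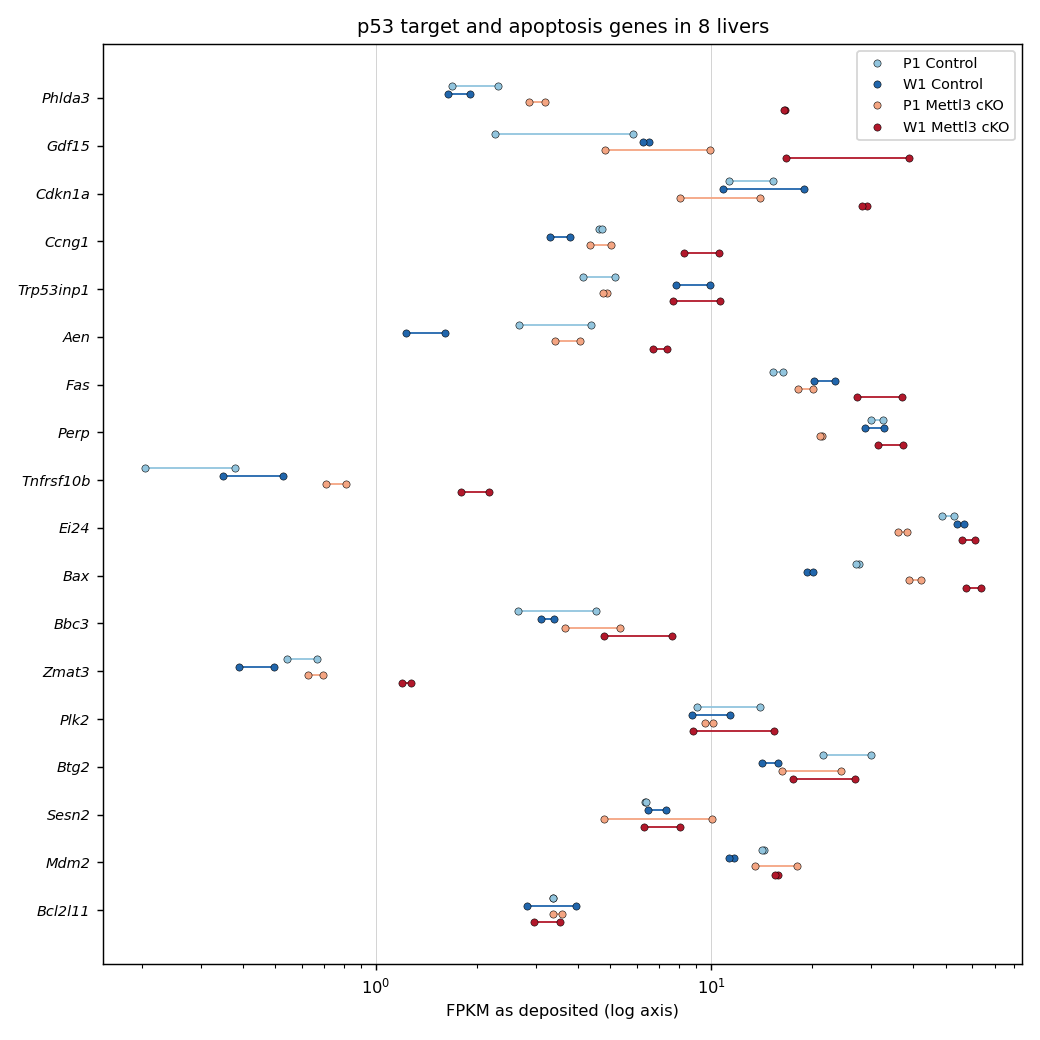
FPKM of the 18 p53 target and apoptosis genes tested, on a log axis, in 8 livers: P1 and W1 Control (light and dark blue) and P1 and W1 Mettl3 cKO (orange and red), with a line joining the 2 livers of a group. Genes are sorted by their change in Mettl3 cKO, from Phlda3 (2.87 and 3.20 to 16.6 and 16.5 FPKM) downwards, and for Phlda3, Cdkn1a and Bax both W1 Mettl3 cKO points lie to the right of the other 6.

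Of 21 genes of other stress responses none were called higher and 4 were lower, all enzymes of serine, asparagine or one-carbon metabolism. Phgdh, which starts serine synthesis, was at 16.4 and 21.5 FPKM at P1 and 5.53 and 6.18 FPKM at W1 (log2 change -1.39 ± 0.36, adjusted p = 0.0157). Asns, which makes asparagine, was at 39.0 and 43.2 FPKM at P1 and 15.7 and 12.5 FPKM at W1 (log2 change -1.34 ± 0.43, adjusted p = 0.0408). Their regulator Atf4 changed by -0.59 ± 0.21 (adjusted p = 0.0636). The list gave 1 or 2 lower genes when 1 of the 4 livers was left out. Interferon genes gave 3 higher and 2 lower of 32, with none higher without W1 replicate 1. Bst2, which tethers virions, was at 35.0 and 56.7 FPKM at P1 and 115 and 114 FPKM at W1 (log2 change 1.48 ± 0.41, adjusted p = 0.0236), and the antiviral enzyme gene Rsad2 fell at 15.1 and 20.02 FPKM at P1 and 6.79 and 5.27 FPKM at W1 (log2 change -1.26 ± 0.33, adjusted p = 0.0167). Of 18 genes of the m6A machinery 3 were lower and none higher. Over all genes tested 9.14% were higher and 13.1% lower. The interferon shares were close to or below these, and the m6A share lower was little above. The reader gene Ythdc1 was at 16.5 and 12.3 FPKM at P1 and 8.66 and 7.71 FPKM at W1 (log2 change -0.60 ± 0.15, adjusted p = 0.0131), the reader gene Igf2bp2 changed by -0.62 and the writer subunit gene Rbm15b by -0.54. Mettl3 (log2 change -0.18 ± 0.14, adjusted p = 0.385) was not called, and 0 or 1 of the 18 genes was called when 1 of the 4 livers was left out.

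Among genes that passed the test without overlap of the ages, the lowest log2 change was that of Hamp, which encodes hepcidin, the hormone that closes the iron exporter ferroportin. Hamp was at 1189 and 543 FPKM at P1 and 4.41 and 57.8 FPKM at W1 (log2 change -5.34 ± 0.96, adjusted p = 0.00233), and the W1 livers differed by more than 10-fold. In Control it was at 555 and 404 FPKM at P1 and 18.8 and 80.6 FPKM at W1. Kel, Ermap, Cldn13 (-2.58) and Dmtn, dematin (-2.51), genes of red cells, were also among the 12 lowest. Rgcc, a regulator of the cell cycle, was at 26.6 and 30.3 FPKM at P1 and 3.94 and 3.58 FPKM at W1 (log2 change -2.47 ± 0.17, adjusted p = 3.77e-06), and Samd11 at 42.6 and 43.3 FPKM at P1 and 6.93 and 5.39 FPKM at W1 (log2 change -2.48 ± 0.23, adjusted p = 2.85e-05). Another 3 of the 12, beside Serpina1e, are uncertain. C1rb, at 6.77 and 5.73 FPKM at P1 and 0.0532 and 0.0294 FPKM at W1, has a near-identical neighbour. Asb17os, at 14.7 and 19.6 FPKM at P1 and 2.08 and 0.718 FPKM at W1, lies antisense to Asb17, and AI506816, at 13.4 and 17.9 FPKM at P1 and 5.39 and 0.102 FPKM at W1, overlaps a microRNA gene. Hamp, Kel and Samd11 also overlap other gene models. Of the 141 genes whose values are given, 35 overlap a gene on the opposite strand, and reads without strand cannot tell such pairs apart.

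The 12 largest rises were led by Ces2e, a carboxylesterase, at 4.60 and 6.47 FPKM at P1 and 75.2 and 47.8 FPKM at W1 (log2 change 3.34 ± 0.30, adjusted p = 2.10e-05). Mettl7b, a thiol methyltransferase that overlaps Itga7, was at 65.5 and 35.2 FPKM at P1 and 459 and 356 FPKM at W1 (log2 change 3.18 ± 0.25, adjusted p = 8.32e-06). Serpina6, which carries corticosteroids in plasma, was at 22.1 and 42.7 FPKM at P1 and 106 and 294 FPKM at W1 (log2 change 2.62 ± 0.51, adjusted p = 0.00382). No overlap between the ages was a condition of the rule that named all 12 genes. C4bp, a complement regulator, was at 2.23 and 2.88 FPKM at P1 and 17.6 and 21.4 FPKM at W1 (log2 change 2.60 ± 0.24, adjusted p = 2.49e-05). Clu, clusterin, was at 59.3 and 81.2 FPKM at P1 and 304 and 343 FPKM at W1 (log2 change 2.34 ± 0.37, adjusted p = 0.00101), and Car3, a carbonic anhydrase of hepatocytes and muscle, at 27.9 and 25.8 FPKM at P1 and 109.9 and 167 FPKM at W1 (log2 change 2.43 ± 0.28, adjusted p = 0.000113). Inmt, an amine methyltransferase, changed by 2.48 and Wfdc17 by 2.52. Ifi27l2b, an interferon-inducible gene, was at 0.383 and 0.259 FPKM at P1 and 7.74 and 14.0 FPKM at W1 (log2 change 3.08 ± 0.32, adjusted p = 5.99e-05). Ifi44l was listed at 0 in both P1 livers and was at 4.51 and 5.55 FPKM at W1 (adjusted p = 0.0437). Ces1c and Tdo2, given above, complete the group.

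Whether the first week differed between genotypes was tested as the change in Mettl3 cKO minus that in Control. At an adjusted p under 0.05 the test called 5 of 13124 genes (0.0381%), and 1774 had an unadjusted p under 0.05. Phlda3 (chr1:135766119-135769136 in GRCm38) stayed at 1.68 and 2.31 FPKM at P1 and 1.91 and 1.64 FPKM at W1 in Control against its rise in Mettl3 cKO, a difference of 2.12 ± 0.28 on the log2 scale, adjusted p = 0.0308. Ddit4l, an inhibitor of mTOR signalling, was at 0.486 and 0.545 FPKM at P1 and 3.39 and 4.35 FPKM at W1 in Mettl3 cKO. In Control it was at 0.471 and 0.334 FPKM at P1 and 0.258 and 0.382 FPKM at W1, a difference of 1.68 ± 0.23 on the log2 scale, adjusted p = 0.0308. The uncharacterised gene 1700007K13Rik was at 0 and 0.087 FPKM at P1 and 3.18 and 2.20 FPKM at W1 in Mettl3 cKO and at 0 and 0 FPKM at P1 and 0 and 0.171 FPKM at W1 in Control, a difference of 1.62 ± 0.24 on the log2 scale, adjusted p = 0.0417. The 3 genes thus rose in Mettl3 cKO above every other library of these ages. Tpm3-rs7, a tropomyosin-related copy, was low in Mettl3 cKO at 1.59 and 1.12 FPKM at P1 and 0.873 and 1.10 FPKM at W1 and rose in Control, at 1.65 and 1.24 FPKM at P1 and 16.04 and 10.1 FPKM at W1, a difference of -2.82 ± 0.31 on the log2 scale, adjusted p = 0.0126. The pseudogene Gm7125 was at 1.02 and 0 FPKM at P1 and 1.18 and 1.31 FPKM at W1 in Mettl3 cKO and at 2.76 and 3.57 FPKM at P1 and 0 and 0.254 FPKM at W1 in Control, a difference of 2.35 ± 0.33 on the log2 scale, adjusted p = 0.0368. Reads of these last 2 may come from their parent genes. Over the 19 settings tried, Tpm3-rs7 was called in 18, Gm7125 in 11, Ddit4l in 10, Phlda3 in 9 and 1700007K13Rik in 8. For Phlda3 the adjusted p lay between 0.0222 and 0.143. The smallest difference called was that of 1700007K13Rik, and the standard error of a difference had a median of 0.27 on the log2 scale.

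**Figure D5:**
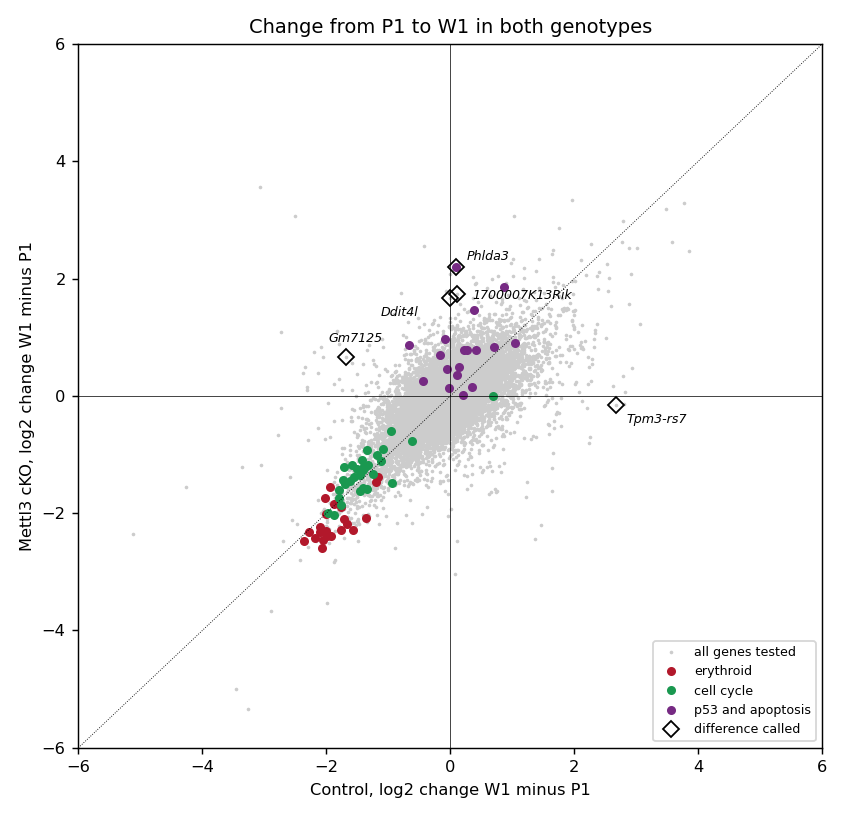
log2 change from P1 to W1 in Control (horizontal) and in Mettl3 cKO (vertical) for the 13124 genes tested (grey), with erythroid (red), cell cycle (green) and p53 target and apoptosis (purple) genes. Diamonds mark the 5 genes whose difference was called, and the dotted line marks equal change. Erythroid and cell cycle genes lie near the line at the lower left, and Phlda3 lies at 2.20 in Mettl3 cKO against 0.09 in Control.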

How the data were processed

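Liver RNA of 16 mice was sequenced by the study from poly(A) RNA, and the 4 Mettl3 cKO libraries of P1 and W1 are described here. The deposited values are FPKM per gene, made by the authors from reads aligned to mm10; the submitters' processing notes name HISAT2 and DESeq2, and the sources used here do not name the counting tool. The library kit did not mark strand. The values used are not counts, so depth was estimated from the spacing of low FPKM values, of which 51% to 53% came out as whole reads within 0.05.

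FPKM were divided by median-of-ratios factors, 1 was added, and log2 values were tested with limma 3.58.1 in R 4.3.3 (trended variance, 8 groups of 2, all 16 libraries sharing one spread) after a filter of 1 FPKM in at least 2 of the 4 libraries, with Benjamini-Hochberg adjustment over 13124 genes and a threshold of 0.05. Such log2 changes understate the change of low genes. The printed FPKM are the deposited values and the changes are on the rescaled log2 scale. Each library is 1 mouse, so p-values measure the spread between these mice only. Members and the 39 gene lists were chosen with earlier results of these data known, and no set test was run. Named genes are Mettl3, the 12 largest and 12 lowest called changes among genes of at least 5 FPKM in 1 age without overlap of the ages (predicted genes, pseudogenes and small RNAs left out), all genes called for the difference, and up to 5 members of a list by adjusted p; other members were chosen after their values were seen. Some genes that the rule names are not reported here; the counts of lists include them. Coordinates are GENCODE vM21 (GRCm38), and promoter sequences are from RefSeq (GRCm38.p6). Alternatives were other scales, filters, added constants and thresholds, a replicate block, a fit of the compared libraries alone, and leaving out each liver. No batch is given in the labels.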

Additional observations from a re-analysis of the deposited data

Results flagged for a closer look

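The change from P1 to W1 differed between Mettl3 cKO and Control, at an adjusted p under 0.05 in limma, for 5 genes. The difference on the log2 scale was -2.82 for Tpm3-rs7 (adjusted p = 0.0126), 1.68 for Ddit4l (0.0308), 2.12 for Phlda3 (0.0308), 2.35 for Gm7125 (0.0368) and 1.62 for 1700007K13Rik (0.0417). Tpm3-rs7, Phlda3, Ddit4l and 1700007K13Rik each rose in both livers of 1 genotype only. The W1 groups also differ in sex, and the Control livers shift in sex between P1 and W1. The part of sex was not tested.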

How the results depend on the processing

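The number of genes changed from P1 to W1 in Mettl3 cKO was 2642 to 3049 with other scales, filters, an added 0.1 FPKM or no variance trend, and 1949 from the 4 libraries alone. It was 1020 at the study's threshold (log2 change over 1 and unadjusted p under 0.05), 956 with an adjusted p and a log2 change over 1, and 1514 to 2132 when 1 liver was left out. The corresponding Control counts were 1260, 1189 and 1816 to 2205. The number of genes that differed between genotypes was 8 on the deposited scale, 33 without a filter, 1 with 0.1 FPKM added, 408 at the study's threshold and 1 to 8 when 1 liver was left out. It was 1 without P1 Mettl3 cKO replicate 1, 3 without W1 Control replicate 1, 8 without W1 Control replicate 2 and 2 without W1 Mettl3 cKO replicate 2. Same-numbered livers were different mice and the labels tie nothing to the number; their deviations correlated at 0.152 between the ages of Mettl3 cKO, 0.164 between the genotypes at W1, 0.0574 between the ages of Control and 0.00801 between the genotypes at P1, with only 2 pairs each. With the replicate number as a block, 2881 genes changed in Mettl3 cKO, of which 2767 were also called without it, and 1 gene differed between genotypes.

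Of 2284 alternative values of the genes named, 1904 kept their direction and their side of the threshold, 341 kept the direction but lost the call, 19 gained it and 20 changed sign. No gene called in its own contrast changed sign. The 12 genes whose sign changed were not called. On the deposited and the nuclear total scale G6pc was at -0.0177 and -0.0406 and Mdm2 at -0.0018 and -0.0239, and Nr1h4 was at -0.0176 on the latter. Ccnd1 was at 0.0104 in the fit of the 4 libraries alone. When any 1 of the 4 livers was left out, the log2 change from P1 to W1 was -0.591 to 0.419 for Acta2, -0.199 to 0.575 for Afp, -0.381 to 0.276 for Arg1, -0.214 to 0.200 for Ccnd1, -0.0523 to 0.705 for Cps1 and -1.262 to 0.818 for Cyp7a1. It was -0.394 to 0.635 for G6pc, -0.0611 to 0.266 for Igf2, -0.0193 to 0.275 for Mdm2, -0.804 to 0.174 for Nr1i3 and -0.0248 to 0.485 for Socs2. The counts at the 2 stricter thresholds are lower by construction, and p53 list genes then numbered 3 higher. Without a filter on low values 7 plasma protein, 7 amino acid, 6 fatty acid oxidation and 4 stellate and fibroblast genes were called higher, and 4 of the last on the nuclear total scale. The cause of the other shifts was not tested. With 2 livers an age, small changes could not be detected.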

Other observations

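Among the 13124 genes, 7 were called in both genotypes in opposite directions. Values are given for 2 of them. Tnfrsf12a, the receptor of the injury-related cytokine TWEAK, was at 26.2 and 25.2 FPKM at P1 and 40.1 and 38.0 FPKM at W1 in Mettl3 cKO. In Control it was at 34.0 and 23.3 FPKM at P1 and 14.6 and 14.2 FPKM at W1, and the difference was 1.36 ± 0.31 on the log2 scale, adjusted p = 0.18. The gene Pcp4l1 was at 7.42 and 4.97 FPKM at P1 and 3.61 and 2.31 FPKM at W1 in Mettl3 cKO. In Control it was at 13.6 and 17.0 FPKM at P1 and 34.9 and 29.2 FPKM at W1, and the difference was -2.03 ± 0.31 on the log2 scale, adjusted p = 0.0501. Beside Aen, the remaining 4 were Zfp970 and Gbp11, lower in Mettl3 cKO and higher in Control, Prr15l, higher and lower, and the pseudogene Gm37116, lower and higher. None of the 7 passed the adjusted threshold for the difference. These genes were picked after their values were seen.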
